A study of Mus musculus with 12 samples.

Results

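E proteins and their Id inhibitors were examined as chromatin: the DNase I hypersensitive sites (DHSs) in and around the genes Tcf3, Tcf4, Tcf12, Id1, Id2 and Id3. A site belonged to a gene when a peak of any of the 12 libraries lay in the gene body or within 50 kb of either end (mm10, GENCODE M21). Overlapping peaks of all libraries were merged into 170207 consensus DHSs, of which 191 fell at these 6 loci: 28 at Tcf3, 46 at Tcf4, 46 at Tcf12, 14 at Id1, 20 at Id2 and 37 at Id3. The 6 genes are among 21755 protein-coding genes on the autosomes and X.

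The study mapped open chromatin by DNase-seq, which sequences short fragments released by DNase I from nuclei, along the path from a marrow progenitor to the early T cell. All cells started as marrow LSK cells (no lineage markers, SCA1 and KIT high) sorted from C57BL/6J mice, the strain its methods name, and 3 libraries were made from LSK cells without culture. DN1 (KIT++CD44+CD25-), DN2a (KIT++CD44+CD25+) and DN2b (KIT+CD44lo CD25+) cells, 2 libraries each, were sorted from LSK cells grown on immobilized Delta1, a Notch ligand, with SCF, FLT-3 ligand, IL-6 and IL-11. DN2 cells also had IL-7 and DN1 cells did not, so stage and IL-7 cannot be told apart, and the 3 IgG libraries are LSK cells cultured on human IgG with no Notch ligand. Replicates of a stage came from independent LSK isolates, but the DN stages were harvested one after another from such cultures, so libraries of different groups can share an isolate, and the labels do not say which do. Every test below treats libraries as exchangeable. Replicates are numbered here only to name a library.

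E proteins are basic helix-loop-helix transcription factors that bind DNA as dimers at E boxes, the sequence CANNTG. Tcf3 encodes E2A (E12 and E47), Tcf12 encodes HEB and Tcf4 encodes E2-2. Id proteins keep the helix-loop-helix but lack the basic region that touches DNA, so a dimer of an Id protein with an E protein does not bind. E2A and HEB are known as drivers of early T cell genes, and Id2 as a factor of innate lymphoid and natural killer cells. Id3 is known to rise after pre-T cell receptor signalling, and Id1 is known from haematopoietic progenitors.

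The values below are percentiles. Each deposited peak has a score, and the highest-scoring peak of a library in a DHS was ranked among all peaks of that library, from near 0 for the weakest to 100 for the strongest, with 0 for no peak. A site is named by its distance from the gene start in kb, with plus in the direction of transcription. Bulk libraries cannot tell a site opening in more cells from one opening wider in each cell.

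The 8 sequences that follow carry the patterns described below. They are the strongest 150-bp peak of each site, read 5′ to 3′ on the plus strand of GRCm38.p6 (the assembly behind mm10, from RefSeq), with every E box in capitals. None touches an annotated exon. They were picked with their values known: the first 3 are the Tcf12 sites open in all Delta1 or all DN2 libraries and no others, and the other 5 are Id sites whose peak touches no exon, with the lowest 5-group adjusted p in either of the settings described below. Id3 +1.3 kb, described below, is not shown because its strongest peak reaches into an Id3 exon.
Tcf12 +223.2 kb, chr9:71888557-71888706: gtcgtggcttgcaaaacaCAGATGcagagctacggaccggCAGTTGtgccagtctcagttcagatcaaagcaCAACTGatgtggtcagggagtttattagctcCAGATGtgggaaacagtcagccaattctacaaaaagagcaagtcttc
Tcf12 +14.6 kb, chr9:72097217-72097366: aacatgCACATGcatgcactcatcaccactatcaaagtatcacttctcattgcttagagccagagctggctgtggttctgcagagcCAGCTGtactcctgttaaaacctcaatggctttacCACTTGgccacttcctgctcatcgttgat
Tcf12 +13.6 kb, chr9:72098197-72098346: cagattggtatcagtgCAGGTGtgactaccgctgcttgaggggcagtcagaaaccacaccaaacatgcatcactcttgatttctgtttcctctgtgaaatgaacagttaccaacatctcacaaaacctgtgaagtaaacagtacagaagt
Id1 +5.5 kb, chr2:152741637-152741786: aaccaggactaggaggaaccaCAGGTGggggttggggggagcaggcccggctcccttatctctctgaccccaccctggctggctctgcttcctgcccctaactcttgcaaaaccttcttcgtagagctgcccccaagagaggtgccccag
Id2 +42.0 kb, chr12:25055017-25055166: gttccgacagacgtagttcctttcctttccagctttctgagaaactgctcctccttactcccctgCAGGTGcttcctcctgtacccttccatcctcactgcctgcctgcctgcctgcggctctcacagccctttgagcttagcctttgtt
Id2 -22.4 kb, chr12:25119417-25119566: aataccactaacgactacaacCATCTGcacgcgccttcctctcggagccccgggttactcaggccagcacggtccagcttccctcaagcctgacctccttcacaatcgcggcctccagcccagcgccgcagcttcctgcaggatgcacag
Id3 -42.9 kb, chr4:136100577-136100726: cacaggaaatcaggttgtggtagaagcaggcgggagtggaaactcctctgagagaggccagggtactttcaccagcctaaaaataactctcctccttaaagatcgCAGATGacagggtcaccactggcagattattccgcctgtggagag
Id3 +4.4 kb, chr4:136147877-136148026: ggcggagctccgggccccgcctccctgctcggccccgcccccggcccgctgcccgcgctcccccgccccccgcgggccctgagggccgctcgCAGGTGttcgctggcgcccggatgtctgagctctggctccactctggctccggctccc

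Each of these 8 sequences held an E box, the most being 4 at Tcf12 +223.2 kb and 3 at Tcf12 +14.6 kb. Over the loci, CANNTG (the same on both strands) was found in the strongest peak of 125 of the 191 DHSs, or 65.4%, against 58.2% of all 170207 DHSs. The form CAGGTG, searched on both strands, was in 33 of 191, or 17.3%, against 13.0% of all, and was in 4 of the 8 printed sequences. The form CAGCTG was in 30 of 191, or 15.7%, against 11.5%. Both are forms of CANNTG and are counted in it. TGGGAA, the core of the site bound by the Notch partner RBPJ, was in 25 of 191, or 13.1%, against 12.8%, and among the printed sequences in Tcf12 +223.2 kb alone. These are matches of letters in a window and were not tested as binding sites.

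Only peak lists were used, so the read depth behind them is unknown. The lists held 32952 to 111582 peaks on the autosomes and X, shortest in IgG (32952 to 37511) and longest in DN1 replicate 1 (96436) and DN2b replicate 2 (111582), so a missing peak in IgG is weaker evidence of closed chromatin. A list made longer by weak peaks also gives its stronger peaks higher percentiles. Results are therefore also given at equal list lengths, where each library was cut to its 32952 peaks of highest score. Of the 191 DHSs, 98 kept a peak in that setting. Of the 58 sites seen in a single library, 33 were seen in DN2b replicate 2. The promoters of markers fitted the labels in part. Those of the T lineage genes Il2ra, Cd3e and Cd3g were open in all 4 DN2 libraries and no other, and 5 or 6 of the 6 DN2 markers were open in DN2 libraries, against 2 in DN1, 1 in LSK and 0 in IgG. Of 6 LSK markers 4 were open in LSK, DN1 and DN2b libraries, 3 or 4 in DN2a and 2 or 3 in IgG, so these promoters did not single out LSK, and Ly6a and Hoxa9 had no promoter peak in any library. No B cell marker (of 3) was open in any library. Of 4 myeloid markers 1 to 3 were open in IgG libraries and 0 or 1 elsewhere. Of 3 erythroid markers 1 was open in 1 DN1 library and none elsewhere, and of 2 natural killer and innate markers 1 was open in every Delta1 library, 0 or 1 in LSK and 0 in IgG. Of 2 mast cell markers both were open in every Delta1 library, 1 in LSK and 0 or 1 in IgG. The part of other cell types in the results below was not tested.

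The first comparison asked whether the number of open sites at a locus changed between stages. In the lists as deposited, the count at every E protein locus was highest on average in DN2b and lowest in IgG, and no locus passed the test across the 5 groups. At Tcf12 the libraries held 12, 9 and 13 sites in LSK, 28 and 17 in DN1, 18 and 15 in DN2a, 15 and 33 in DN2b, and 5, 8 and 6 in IgG. Mean ± SD at Tcf12, over 3 libraries for LSK and IgG and 2 for each DN stage, as in all group means below, was 11.3 ± 2.08 for LSK, 22.5 ± 7.78 for DN1, 16.5 ± 2.12 for DN2a, 24 ± 12.7 for DN2b and 6.33 ± 1.53 for IgG. All 3 IgG libraries lay below every other library at this locus. Groups took a share of 0.694 of the variance in the Tcf12 count (eta squared, exact permutation test over all ways to divide 12 libraries into such groups, adjusted p = 0.155 over all genes).

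At Tcf4 the counts were 14, 15 and 20 in LSK, 28 and 16 in DN1, 10 and 11 in DN2a, 17 and 29 in DN2b, and 2, 2 and 9 in IgG (eta squared 0.755, exact permutation test, adjusted p = 0.0989). IgG replicate 3 stood apart from the other two IgG libraries there, and all 3 were below every Delta1 and LSK library in the lists as deposited. At Tcf3 as deposited the IgG libraries had 10 or 11 sites, below the 12 to 23 of all other libraries, and the other groups overlapped (eta squared 0.668, exact permutation test, adjusted p = 0.150). Equal list lengths removed this order at Tcf3. The counts there were 10, 11 and 8 in LSK, 8 and 8 in DN1, and 8 and 9 in DN2a. DN2b had 10 and 11, and IgG 11, 10 and 10. Of the Id loci, Id3 ran from 7 to 24 sites (0.646, adjusted p = 0.136), Id1 from 6 to 12 (0.392, adjusted p = 0.526) and Id2 from 4 to 18 (0.381, adjusted p = 0.511), all by the same exact permutation test. The 18 Id2 sites were in DN2b replicate 2, against 4 in DN2b replicate 1.

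None of the 6 loci was therefore called (0 of 6), where 9.45% of all 21755 genes were, and at equal list lengths again 0 of 6 against 9.18%. The unadjusted p was below 0.05 for Tcf4 (0.0253) and Id3 (0.0477) as deposited. Equal list lengths gave another order at Tcf12, with mean ± SD sites of 4 ± 1 for LSK, 6 ± 0 for DN1, 9 ± 1.41 for DN2a, 11 ± 1.41 for DN2b and 5.67 ± 2.08 for IgG (eta squared 0.834, exact permutation test, adjusted p = 0.0646). There the DN2 libraries, with 8 to 12 sites, were at or above all 8 others, which had 3 to 8. Tcf4 went the other way at equal lengths, from 8.33 ± 2.52 (SD, n = 3) in LSK to 3.5 ± 0.707 in DN2a and 4 ± 1.41 in DN2b (n = 2 each), without passing the test (adjusted p = 0.514, exact permutation test). The IgG libraries then held 1, 2 and 9 Tcf4 sites, and IgG replicate 3 exceeded every Delta1 library (3 to 7). Without DN2b replicate 1, DN2b was the longest list alone, assumed to vary like the other groups, and 5 of the 6 loci passed as deposited beside 40.9% of all genes, with adjusted p from 0.0230 at Tcf12 to 0.0355 at Tcf4 (exact permutation test), and Id1 did not.

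**Figure D1:**
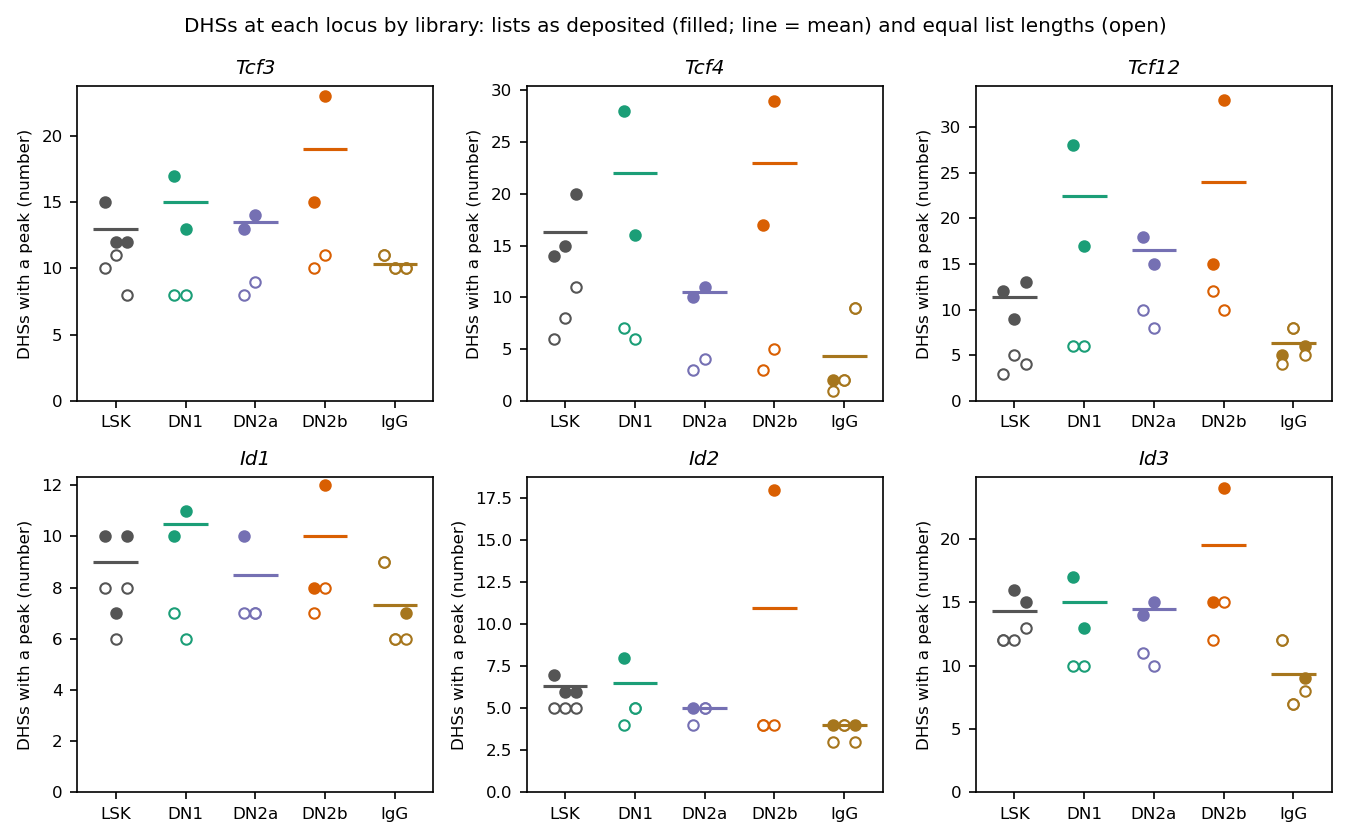
Number of consensus DHSs at each of the 6 loci that hold a peak of the library (vertical axis), by group and library, with filled points and a line at the group mean for the lists as deposited and open points for the 32952 highest-scoring peaks of each library. The 2 longest lists, DN1 replicate 1 and DN2b replicate 2, have the highest filled points at Tcf4 and Tcf12 (28 to 33 sites) and come within 2 sites of the other library of their group once lengths are equal.

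**Figure D2:**
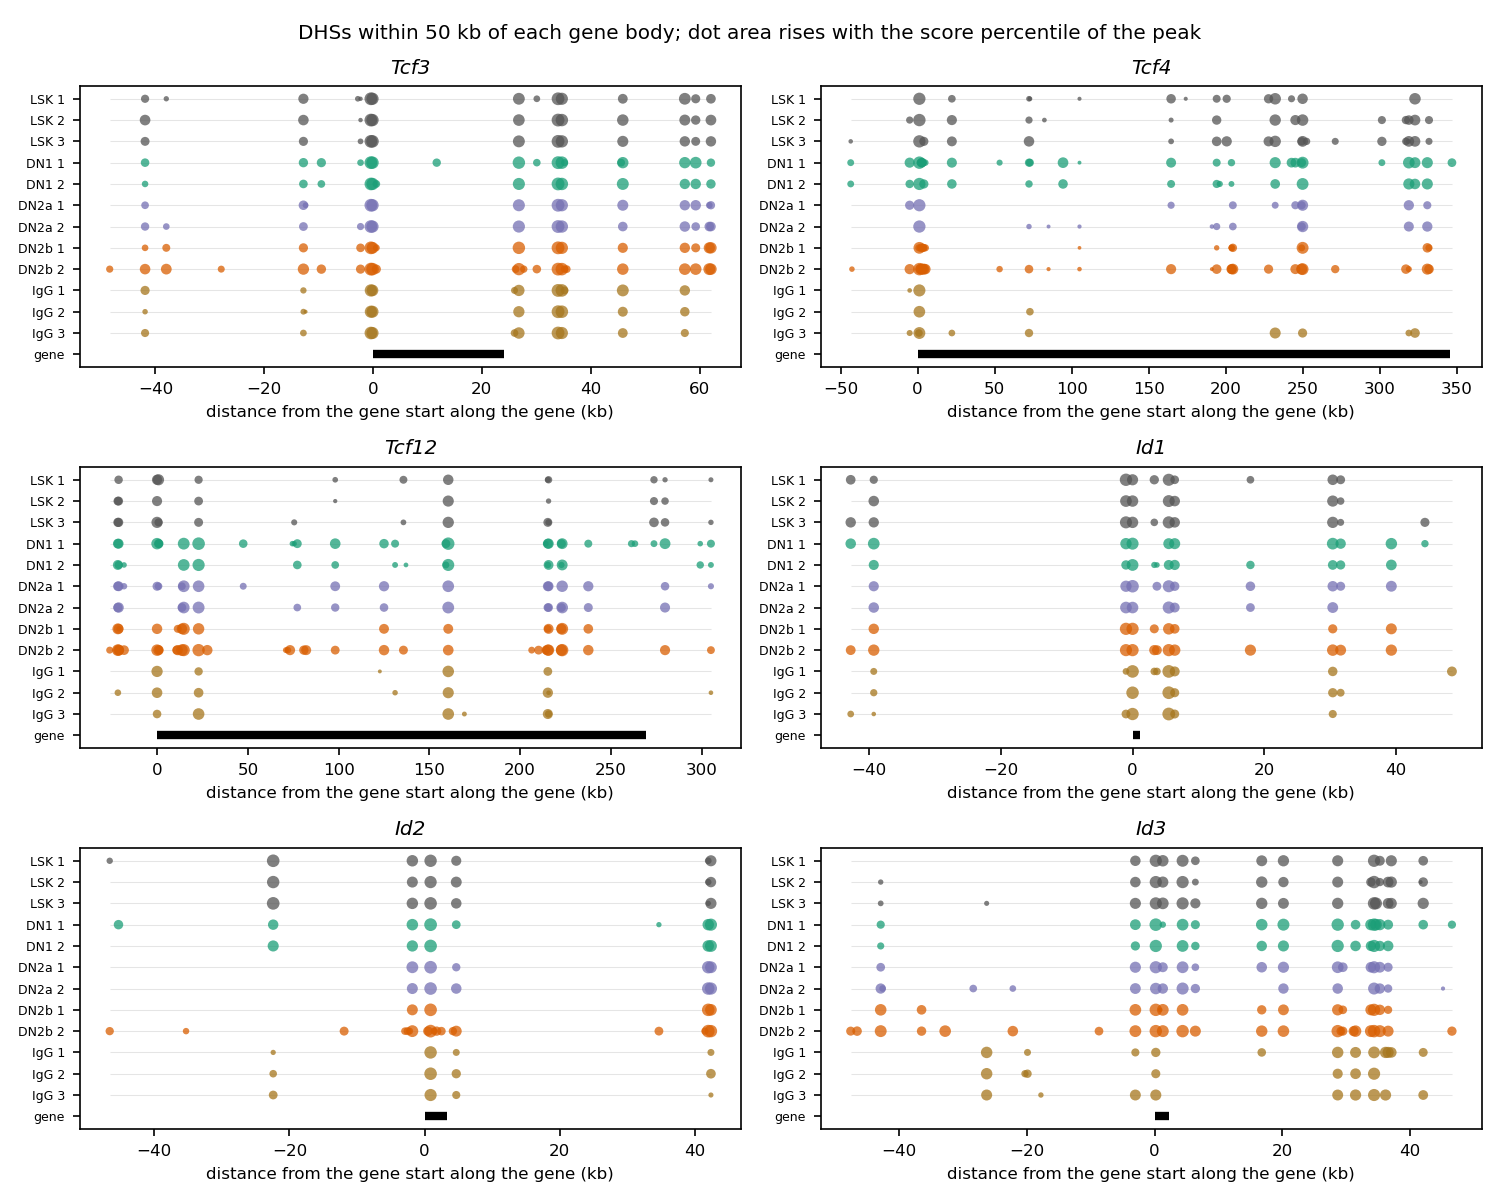
Position of every consensus DHS from the gene start in kb, along the gene (horizontal axis), in each library (rows), for the 6 loci, with dot area rising with the percentile of the library's strongest peak in the DHS and the gene body as a black bar. The Tcf12 sites at +14.6 and +223.2 kb have dots in the 6 Delta1 libraries only, and the Id2 site at -22.4 kb has dots in LSK, DN1 and IgG only.

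Promoters, taken as 1 kb on either side of the gene start, were open in all 12 libraries at Tcf3, Id1, Id2 and Id3. The strongest Tcf3 promoter peak stood at 98.4 to 99.0 in LSK, 97.1 to 99.6 in the 6 Delta1 libraries and 89.6 to 96.5 in IgG. This promoter was among the strongest peaks of every library, and its IgG values as deposited were lower than all the others. At equal list lengths IgG replicate 3 (96.0) lay above DN1 replicate 2 (93.9), and the other IgG libraries were at 89.6. The Id2 promoter site (+0.9 kb, chr12:25096097-25096286, over an Id2 UTR) was at 96.0 to 98.3 in the Delta1 libraries, above every library without ligand (89.3 to 95.4). The means were 97.1 ± 0.924 (SD, n = 6) with Delta1 and 92.8 ± 2.52 (SD, n = 6) without, a difference of 4.27 percentile points (exact permutation test, adjusted p = 0.0394), which was lost at equal list lengths (adjusted p = 0.293, exact permutation test).

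The Id3 promoter was at 89.8, 89.8 and 88.8 in LSK, 95.6 and 90.8 in DN1, 89.4 and 79.2 in DN2a, 93.5 and 93.4 in DN2b, and 48.7, 45.9 and 72.6 in IgG. The IgG libraries were again the 3 lowest as deposited, though the site did not pass the 5-group test (adjusted p = 0.159, exact permutation test). At equal list lengths IgG was at 41.6, 45.9 and 68.8, and DN2a replicate 2, at 63.6, lay below IgG replicate 3. The Id1 promoter ran the other way, from a mean ± SD of 76.1 ± 2.30 for LSK through 85.1 ± 2.87 for DN1, 87.4 ± 10.5 for DN2a and 89.9 ± 0.438 for DN2b to 94.1 ± 2.21 for IgG. The groups of LSK and IgG did not overlap, and the site across all groups had an adjusted p of 0.111 (exact permutation test). With a window of 2.5 kb, which takes in the next site upstream, the LSK mean became 87.3 ± 5.63 (SD, n = 3), so this order rests on the window.

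The 2 long E protein genes use several starts, and their promoters differed by start. At the Tcf12 gene start a peak was present in all LSK, DN2b and IgG libraries but in 1 of 2 DN1 and 1 of 2 DN2a libraries, with percentiles of 40.0 to 78.5 where present. An internal start 215.8 kb into Tcf12, which begins a shorter coding transcript, had a peak within 1 kb in all 12 libraries. The DHS over it, at +215.7 kb (chr9:71896057-71896266, over a UTR) was at 27.3, 10.5 and 18.6 in LSK, 62.0 and 55.2 in DN1, 56.5 and 42.3 in DN2a, 57.5 and 75 in DN2b, and 0, 5.38 and 26.8 in IgG. All 6 Delta1 libraries exceeded all 6 others there. The means were 58.1 ± 10.6 (SD, n = 6) with Delta1 and 14.8 ± 11.3 (SD, n = 6) without, and the difference of 43.3 passed the Delta1 test (adjusted p = 0.0394, exact permutation test) and the 5-group test (adjusted p = 0.0467), the last in none of the 12 fits with 1 library left out. At equal list lengths 5 of the 11 libraries with that peak lost it, and neither test passed (adjusted p = 0.708 and 0.216, exact permutation tests).

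At the first base of Tcf4 only DN2b replicate 1 (25.6) and IgG replicate 3 (29.5) had a peak within 1 kb, but the DHS at +1.1 kb (chr18:69344337-69344526, over a UTR), at the start of other coding transcripts, was open in all 12 libraries at 80.9 to 94.3. The start group 250 kb into Tcf4 had a DHS (chr18:69593237-69593466) at 63.5 to 78.5 in LSK, 72.7 to 85.3 in the Delta1 libraries, and 0, 0 and 46.9 in IgG. IgG replicate 3 was the only control library with that site open. The site did not pass the Delta1 test (adjusted p = 0.0896, exact permutation test). No library had a peak at the coding starts between 156.0 and 179.1 kb into Tcf4.

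**Figure D3:**
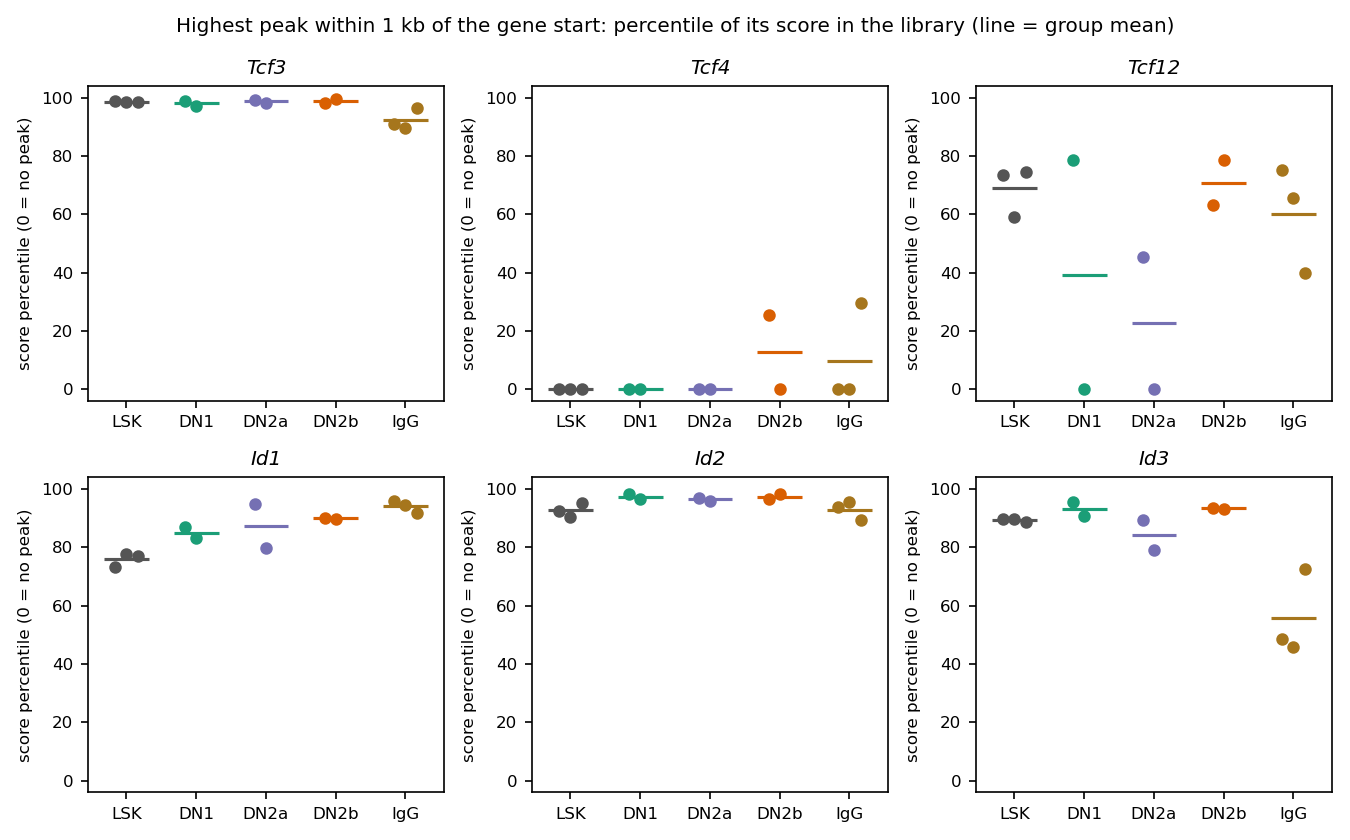
Percentile of the strongest peak within 1 kb of the gene start (vertical axis, 0 for no peak) in the lists as deposited, by group and library, with a line at the group mean. The Tcf3 and Id2 promoters stay above 89 in every library, the Id3 promoter is lowest in IgG (45.9 to 72.6), and the Tcf12 start is without a peak in 1 DN1 and 1 DN2a library.

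The percentiles of each site were then compared across the 5 groups (5-group test), between the 6 libraries with Delta1 and the 6 without (Delta1 test), and between the 4 DN2 libraries and the rest. The libraries without Delta1 pool uncultured LSK cells with cultured IgG cells, and the 4 DN2 libraries also had IL-7. The Delta1 test therefore cannot tell the ligand apart from culture, IL-7 or sorted stage. Each p comes from an exact permutation test over libraries and is Benjamini-Hochberg adjusted over all DHSs with a threshold of 0.05. Site by site, 17 of the 191 DHSs (8.90%) passed the 5-group test as deposited, where 8.39% of all DHSs did, so the loci as a whole varied about as often as the rest of the genome. The exact permutation test gave 58 of the 191 (30.4%) an unadjusted p below 0.05, against 29.9% of all DHSs. By gene, 6 of the 17 were at Tcf12, 4 at Tcf3, 2 each at Tcf4, Id2 and Id3, and 1 at Id1. At equal list lengths 15 of 98 passed (15.3%), below the 21.3% of all DHSs, and 7 sites passed in both settings: 3 at Tcf12, 2 at Id2, 1 at Id1 and 1 at Id3. With any 1 IgG library left out, 0 of the 191 passed, and 0% of all DHSs. With 1 LSK, DN1 or DN2a library left out 9 to 11 did, beside 2.7% to 4.34% of all DHSs. Without DN2b replicate 1 it was 19, beside 8.87% of all, and without DN2b replicate 2 it was 12, beside 6.4%. Of the 17 calls, Tcf12 +215.7 kb was kept in 0 of the 12 fits with 1 library left out, Tcf12 +160.4 kb, Tcf3 +59.3 and +61.8 kb and Tcf4 +204.7 kb in 1 each, and Tcf4 +331.0 kb, Tcf12 +13.6 kb and Tcf12 -21.3 kb in 2, 3 and 4. The other 9 were kept in 6 to 9 of them.

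Between libraries with and without Delta1, 11 of 191 sites (5.76%) were higher with the ligand, against 5.23% of all DHSs, and 0 were lower, against 0.272%. The 11 were 4 at Tcf12, 3 at Id2, 2 at Id3 and 1 each at Tcf3 and Tcf4. At equal list lengths 4 of 98 were higher (4.08%), against 4.15% of all, and 0 lower, against 1.72%. Those 4, all among the 11, were Tcf12 +14.6 and +223.2 kb and Id2 +42.0 and +42.4 kb. Leaving out DN1 replicate 1 or any DN2a or DN2b library ended all 11 calls, with 0% of all DHSs called. Without DN1 replicate 2, 6 of the 11 were kept, and without any 1 LSK or IgG library 10 were, where 4.42% to 5.3% of all DHSs passed. The call lost without each LSK or IgG library was Id3 -42.9 kb. The differences themselves stayed above 0 at all 11 sites in each of these fits, at 83.3 to 84.6 for Tcf12 +14.6 kb and 78.8 to 83.0 for Id2 +42.0 kb. The median difference over the 191 sites was 6.91 percentile points towards Delta1 as deposited (152 above 0, 39 below), and -2.11 at equal lengths (42 above, 56 below), beside 4.82 and -0.897 over all DHSs. The sign of the median thus differed between the settings, for the members and for all DHSs.

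DN2 against the other 8 libraries gave 0 of 191 sites as deposited and 0% of all DHSs, the smallest adjusted p being 0.0784 (exact permutation test), with 23 of the 191 (12%) at an unadjusted p below 0.05, against 10.7% of all. At equal lengths 3 of 98 were higher in DN2 (3.06%), against 4.14% of all, and 0 were lower, against 1.03%. The 3 were Tcf12 +223.2 kb, Id2 +42.0 kb and Id3 +35.3 kb.

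**Figure D4:**
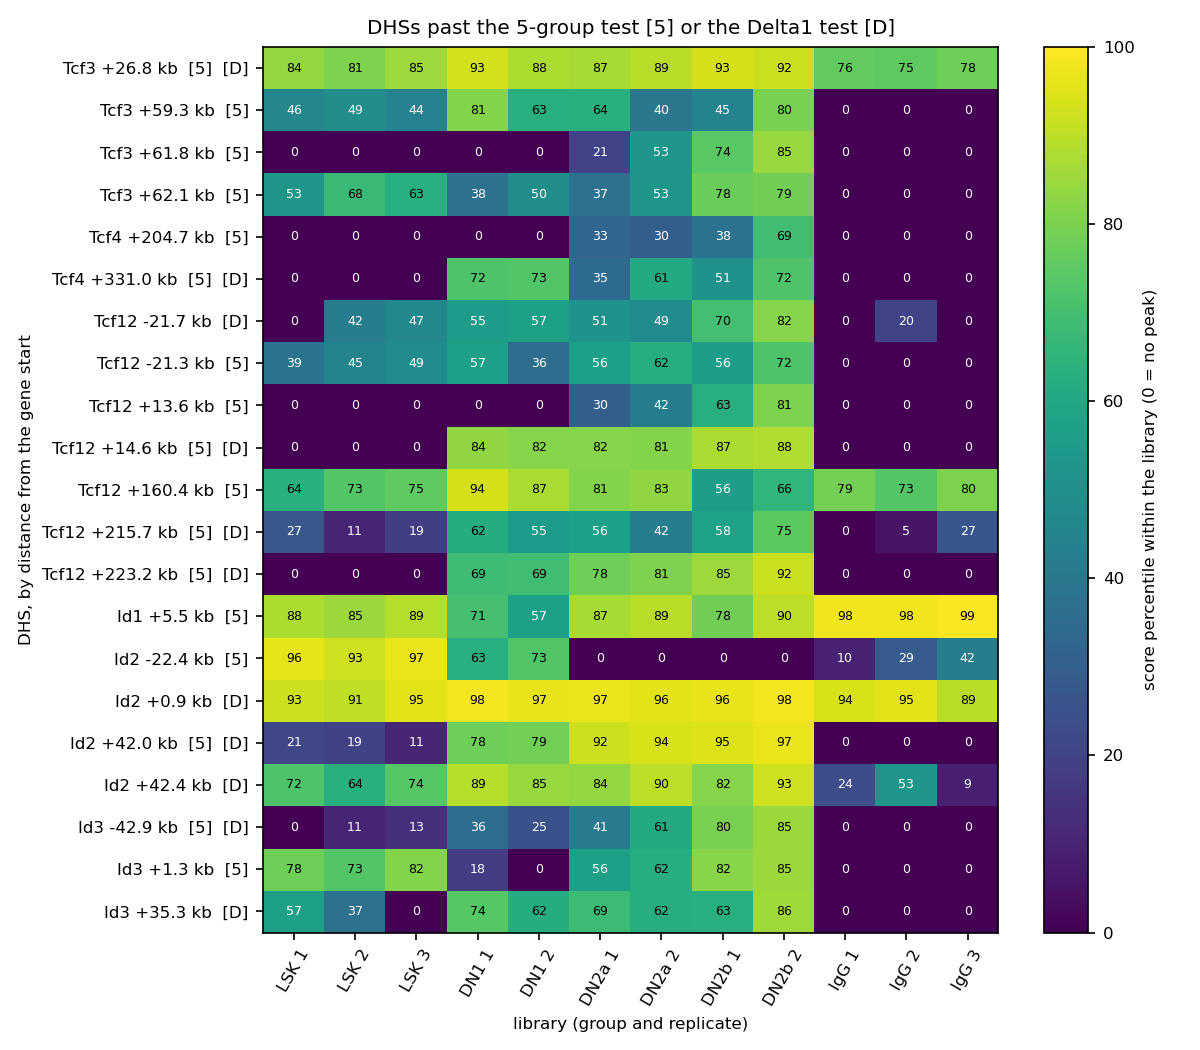
Percentile of the strongest peak (colour and number, 0 for no peak) in each of the 12 libraries (columns) for the 21 DHSs (rows) past the 5-group test [5] or the Delta1 test [D] in the lists as deposited. Rows such as Tcf12 +14.6 kb are 0 in all LSK and IgG libraries and 81.5 to 88.2 in the Delta1 libraries, and Id2 -22.4 kb falls from 92.9 to 97.1 in LSK to 0 in all DN2 libraries.

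Tcf12, which encodes HEB, had 2 of the 3 sites with a peak in all 6 Delta1 libraries and in no other. The +14.6 kb site (chr9:72097217-72097386, in a Tcf12 intron) had no peak in the 3 LSK or the 3 IgG libraries. It stood at 83.6 and 81.9 in DN1, 82.0 and 81.5 in DN2a, and 87.5 and 88.2 in DN2b. It was thus open to a similar level in every Delta1 library from DN1 on, and the 2 sets of libraries were fully apart. The tests gave adjusted p = 0.0394 for Delta1 and 0.0116 across the 5 groups (exact permutation tests), and at equal list lengths 0.0368 and 0.0169.

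The +223.2 kb site (chr9:71888537-71888706, in a Tcf12 intron, downstream of the internal start) also had no peak without ligand. It rose through the stages, with 68.8 and 69.5 in DN1, 77.8 and 80.7 in DN2a, and 85.3 and 92.0 in DN2b, and no pair of groups among these overlapped. The adjusted p was 0.0394 for Delta1 and 0.00884 across the groups (exact permutation tests), and 0.0368 and 0.0172 at equal list lengths, where DN1 was at 8.60 and 35.7 and DN2 at 53.9 to 73.1. Another intron site, +13.6 kb (chr9:72098137-72098346), was 0 in LSK, DN1 and IgG, 30.3 and 42.3 in DN2a, and 63.1 and 80.6 in DN2b (5-group exact permutation test, adjusted p = 0.0325). At equal lengths it remained in the DN2b libraries alone and did not pass (adjusted p = 0.131, exact permutation test).

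Other Tcf12 sites had peaks in some or all groups without ligand too. The +22.8 kb intron site was at 36.0 to 44.3 in LSK, 77.5 to 95.6 in the Delta1 libraries, and 37.5, 52.8 and 80.3 in IgG. LSK lay below all Delta1 libraries, while IgG replicate 3 reached into their range, and the Delta1 test gave adjusted p = 0.0659 (exact permutation test). The +160.4 kb intron site was on average highest in DN1 (93.5 and 87.3) and lowest in DN2b (55.9 and 65.9), with LSK at 63.5 to 75.5, DN2a at 81.3 and 83.4 and IgG at 73.1 to 80.3 (5-group exact permutation test, adjusted p = 0.0407, and 0.00950 at equal lengths, with the call kept in 1 of the 12 fits with 1 library left out). Upstream, the sites at -21.3 kb and -21.7 kb, outside any gene, were open in all Delta1 libraries (35.7 to 72.3 and 48.6 to 82.0). At -21.3 kb the LSK libraries were also open (38.6 to 48.7) and the 3 IgG libraries were not (5-group exact permutation test, adjusted p = 0.0320). At -21.7 kb only 3 of the 6 libraries without ligand had a peak (Delta1 exact permutation test, adjusted p = 0.0394). Neither passed at equal lengths (adjusted p = 0.157 and 0.546, exact permutation tests).

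Tcf4, which encodes E2-2, had intron sites of opposite kinds. The +331.0 kb site (chr18:69674277-69674466) was absent from all LSK and IgG libraries and stood at 72.5 and 72.7 in DN1, 34.9 and 61.0 in DN2a, and 50.8 and 72.3 in DN2b. It passed the Delta1 test (adjusted p = 0.0394) and the 5-group test (adjusted p = 0.0179, exact permutation tests), and neither at equal lengths (0.130 and 0.157). The +204.7 kb site was in the 4 DN2 libraries alone, at 30.2 to 69.3 (5-group exact permutation test, adjusted p = 0.0325), and had no peak in any library at equal lengths.

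In the other direction, the +323.0 kb intron site (chr18:69666197-69666446) was at 78.9, 67.6 and 67.0 in LSK, 69.7 and 64.6 in DN1, 0 in all 4 DN2 libraries, and 0, 0 and 52.8 in IgG. The +232.2 kb site (chr18:69575417-69575646) was at 76.9 to 78.9 in LSK, 73.4 and 53.4 in DN1, 23.1 and 0 in DN2a, 0 in both DN2b, and 0, 0 and 71.6 in IgG. Both were open in every LSK and DN1 library and shut in DN2b, with 1 IgG library apart from the other two. Neither passed the 5-group test (adjusted p = 0.0651 and 0.163, exact permutation tests).

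At the Tcf3 locus the genome is crowded, and 18 of the 28 sites lay nearer the start of another coding gene. The +34.0 kb site (98.7 to 99.9 in all libraries), lay at the Mbd3 start. The +26.8 kb site that passed both tests (90.4 ± 2.76 with Delta1 and 79.8 ± 4.08 without, SD, n = 6 each, Delta1 exact permutation test, adjusted p = 0.0394) lay over a UTR at the Uqcr11 start. Another 3 sites between genes, 59.3 to 62.1 kb from the Tcf3 start and nearer the Plk5 or Mex3d start, also passed the 5-group test. Of these +61.8 kb was seen in the 4 DN2 libraries alone (20.7 and 52.5 in DN2a, 74.4 and 84.6 in DN2b, exact permutation test, adjusted p = 0.0325), and +59.3 and +62.1 kb were present in all 9 LSK and Delta1 libraries and in no IgG library. No Tcf3 site passed at equal lengths. The sites in the Tcf3 body itself were 2 of 28.

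Id2, which encodes an Id inhibitor, had sites that changed in opposite directions along the series. At -22.4 kb (chr12:25119377-25119606, between genes) the percentiles were 96.2, 92.9 and 97.1 in LSK, 63.2 and 72.7 in DN1, 0 in both DN2a and both DN2b libraries, and 9.68, 29.3 and 42.4 in IgG. As deposited, the site was one of the strongest 10% of peaks in uncultured progenitors, lower in DN1 and lower still in IgG with no overlap between these groups, and without a peak in DN2. At equal list lengths DN1 replicate 1 lost the peak, and DN1 and IgG overlapped. Groups differed (exact permutation test, adjusted p = 0.0116, and 0.0406 at equal lengths). It was the only one of the 191 sites open in all 8 other libraries and in no DN2 library, a pattern of 0.179% of all DHSs.

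The +42.0 kb site (chr12:25054997-25055206, in an intron of the neighbour Kidins220, whose own start is farther away than that of Id2) went the opposite way. Its percentiles were 21.2, 19.3 and 10.9 in LSK, 77.8 and 78.6 in DN1, 92.4 and 93.8 in DN2a, 94.8 and 96.9 in DN2b, and 0 in all 3 IgG libraries. The 5 groups did not overlap and stood in the order IgG, LSK, DN1, DN2a, DN2b. Means were 89.1 ± 8.55 (SD, n = 6) with Delta1 and 8.55 ± 9.99 (SD, n = 6) without, a difference of 80.5 (Delta1 exact permutation test, adjusted p = 0.0394, and 0.00884 across the 5 groups). At equal lengths it was absent from all libraries without ligand, at 35.2 and 54.8 in DN1 and 84.1 to 90.4 in DN2, and passed all 3 tests (adjusted p = 0.00652 for 5 groups, 0.0368 for Delta1 and 0.0390 for DN2, exact permutation tests).

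The next site, +42.4 kb (chr12:25054657-25054846, same intron), was at 63.6 to 73.6 in LSK, 81.7 to 92.7 in the Delta1 libraries and 8.77 to 52.8 in IgG. The difference of 37.8 with Delta1 passed in both settings (adjusted p = 0.0394 and 0.0368, exact permutation tests). At -1.8 kb (chr12:25098817-25099026) a site was present at 70.9 to 83.8 in all 9 LSK and Delta1 libraries, whose groups overlapped, and was missing from the 3 IgG libraries. That site passed the 5-group test at equal lengths alone (adjusted p = 0.0240, against 0.0651 as deposited, exact permutation tests). Of the 20 Id2 sites 11 were seen in DN2b replicate 2 and in no other library.

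Id3, whose product also binds E proteins, had a site inside the gene that was lower in DN1 than in LSK, DN2a or DN2b. The +1.3 kb site (chr4:136144677-136144886, centred in an Id3 intron and reaching an exon) was at 78.1, 73.2 and 81.6 in LSK, 18.3 and 0 in DN1, 56.5 and 62.5 in DN2a, 82.3 and 85.0 in DN2b, and 0 in the 3 IgG libraries. As deposited, DN1 and IgG overlapped at 0, and the other groups were apart from each other and from these. At equal list lengths LSK and DN2b overlapped. It passed the 5-group test (adjusted p = 0.00884, and 0.0194 at equal lengths, exact permutation tests).

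Far upstream, the -42.9 kb site (chr4:136100517-136100726, between genes) was at 0, 10.5 and 13.3 in LSK, 35.7 and 25 in DN1, 41.4 and 61.0 in DN2a, 79.7 and 85.0 in DN2b, and 0 in IgG. Each later stage lay above the one before it with no overlap. The adjusted p was 0.00884 across groups and 0.0394 for Delta1 (exact permutation tests), and 0.0963 and 0.456 at equal lengths, where only DN2a replicate 2 (31.7) and both DN2b libraries (62.1 and 49.3) kept the peak. Its Delta1 call was kept in 1 of the 12 fits with 1 library left out, the fewest of the 11 Delta1 calls.

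Beside the gene, +4.4 kb (chr4:136147817-136148046) and +20.2 kb (chr4:136163597-136163786) were open in all LSK and Delta1 libraries, at 81.7 to 94.0 and 62.1 to 86.3, and had no peak in any IgG library. As deposited these sites were just short of the 5-group threshold (adjusted p = 0.0550 and 0.0505), and at equal lengths they passed (0.0181 and 0.0418, exact permutation tests). The reverse was seen at -26.3 kb (chr4:136117117-136117326), a site singled out after its values were seen, at 78.4, 78.1 and 71.6 in IgG, 8.55 in LSK replicate 3 and 0 in the other 8 libraries (adjusted p = 0.0651, and 0.0443 at equal lengths, exact permutation tests). The +35.3 kb site, in an E2f2 intron, passed the Delta1 test (69.3 ± 9.38 with and 15.7 ± 25 without, SD, n = 6 each, exact permutation test, adjusted p = 0.0394), and 20 of the 37 sites in the Id3 window lay nearer the start of another gene, such as E2f2.

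Over the 6 loci, 7 sites were open in all 9 LSK and Delta1 libraries and in no IgG library (3.66%, against 3.17% of all DHSs): 2 each at Tcf3, Id2 and Id3 and 1 at Tcf12. Besides those already given (Tcf3 +59.3 and +62.1 kb, Tcf12 -21.3 kb, Id2 +42.0 and -1.8 kb, Id3 +4.4 and +20.2 kb) there was none. The IgG lists are the shortest, and the part of list length in these absences was not tested beyond the equal-length values above.

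Id1, the locus with the fewest sites, had 1 site past a test as deposited, at +5.5 kb (chr2:152741537-152741966, between genes). Its percentiles were 87.9, 85.1 and 88.8 in LSK, 70.7 and 56.9 in DN1, 87.1 and 89.1 in DN2a, 78.3 and 90.0 in DN2b, and 97.9, 98.0 and 99.4 in IgG. IgG was above and DN1 below every other library, and LSK, DN2a and DN2b overlapped (5-group exact permutation test, adjusted p = 0.0214, and 0.00652 at equal lengths). The -1.0 kb site (chr2:152735117-152735326) was at 81.4 to 92.6 in LSK, 76.5 and 49.5 in DN1, 75.4 and 81.5 in DN2a, 90.2 and 88.6 in DN2b, and 20.8, 0 and 42.4 in IgG (adjusted p = 0.0583, and 0.0443 at equal lengths, exact permutation tests). Here IgG was below every other library as deposited, but at equal list lengths IgG replicate 3 lay above DN1 replicate 2. At +39.3 kb, nearer Cox4i2, a site was present in 5 of 6 Delta1 libraries (67.2 to 77.8) and in none of the others (Delta1 exact permutation test, adjusted p = 0.134).

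**Figure D5:**
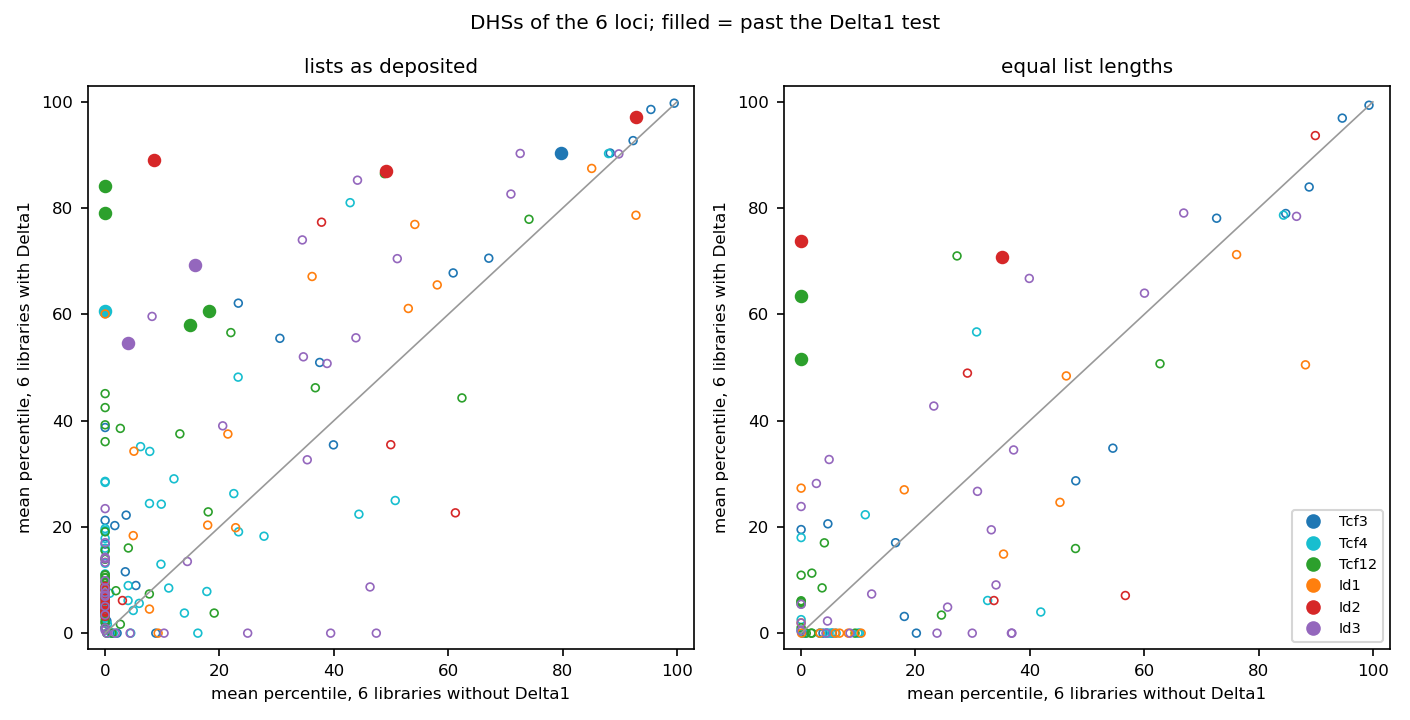
Mean percentile of each DHS of the 6 loci over the 6 libraries with Delta1 (vertical axis) against the 6 without (horizontal axis), coloured by gene, as deposited (left) and at equal list lengths (right), with the line of equality and filled points for sites past the Delta1 test. The 11 filled points on the left lie above the line, and the 4 that stay filled on the right are 2 sites of Tcf12 and 2 of Id2.

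The steps between stages were then counted as sites with a peak in every library of one group and in none of another. Pairs of groups of this size cannot reach 0.05 in a permutation test (the smallest p is 0.1 for 3 against 2 and 0.33 for 2 against 2), so the counts are given beside the share of all DHSs with the same pattern. From LSK to DN1 13 of 191 sites were gained (6.81%, against 7.77% of all), 7 of them at Tcf12, and 1 was lost (0.524%, against 1.17%), an Id3 site. From DN1 to DN2a 3 were gained (1.57%, against 1.3%) and 11 lost (5.76%, against 6.32%), 5 of the lost at Tcf4. From DN2a to DN2b 14 were gained (7.33%, against 3.78%), 9 of them at Tcf4, and 0 lost (against 0.533%). Without DN1 replicate 2 the gain from LSK to DN1 was 35 of 189 sites (18.5%, against 21.2% of all), and without DN2b replicate 1 the gain from DN2a to DN2b was 63 of 190 (33.2%, against 23.7%).

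Between the ends of the series, LSK and DN2b, 22 sites were gained (11.5%, against 9.06%), 9 at Tcf4 and 8 at Tcf12, and 7 lost (3.66%, against 2.73%). From LSK to the IgG culture 1 was gained (0.524%, against 2.51%) and 14 lost (7.33%, against 7.87%). Set against DN1, IgG had 1 site that DN1 lacked (against 2.48%) and lacked 26 that DN1 had (13.6%, against 17.9%). The single site IgG gained was Id3 +31.5 kb against LSK and Id3 -26.3 kb against DN1, both singled out after their values were seen. These comparisons share libraries and are not independent.

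With all 6 Delta1 libraries set against all 6 others, 3 sites were gained (1.57%, against 1.9% of all), Tcf12 +14.6 and +223.2 kb and Tcf4 +331.0 kb, and 0 lost (against 0.0987%). In DN2 alone 3 were gained (1.57%, against 0.758%), Tcf3 +61.8 kb, Tcf4 +204.7 kb and Tcf12 +13.6 kb, and 1 was lost (0.524%, against 0.179%). At equal lengths 3 of 98 were gained with Delta1 (3.06%, against 1.85%), 2 at Tcf12 and 1 at Id2, and 0 lost (against 0.443%), while DN2 alone had 0 gained (against 1.98%) and 0 lost (against 0.447%). Sites in both DN1 libraries and no other numbered 3 (1.57%, against 1.77% of all), of which 2 were at Tcf12 (+159.1 and +299.3 kb) and 1 at Tcf4 (+94.4 kb), at 11.9 to 66.6. Most of these shares lay near those of the genome. The gain from DN2a to DN2b stood furthest above its background in percentage points, and at equal lengths it was 4 of 98 sites (4.08%, against 2.61% of all). With the upper 50% of each list the order turned, at 3 of 109 sites (2.75%, against 4.23%).

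Of 21 other genes of the pathway, listed for their roles with earlier results of these data known, 5 passed the locus test as deposited (background 9.45%) and 6 at equal lengths (background 9.18%). Of 9 genes known as E protein targets 4 passed. Cd3e, a chain of the T cell receptor complex, had a mean ± SD of 7.33 ± 1.53 sites for LSK, 11.5 ± 2.12 for DN1, 16.5 ± 0.707 for DN2a, 19.5 ± 3.54 for DN2b and 5.67 ± 0.577 for IgG (exact permutation test, adjusted p = 0.0210, and 0.0147 at equal lengths). Il7r, the IL-7 receptor, rose from 3 ± 0 sites (SD, n = 3) in LSK to 12 ± 4.24 (SD, n = 2) in DN2b (adjusted p = 0.0389, exact permutation test). Ebf1, a B cell factor, and Foxo1 were lowest in IgG, with 1 ± 0 and 2.33 ± 1.53 sites (SD, n = 3), against 9.33 ± 2.08 and 9.67 ± 2.08 (SD, n = 3) in LSK (adjusted p = 0.0458 and 0.0436, exact permutation test). At equal lengths Ebf1 had 3.33 ± 1.15 sites in LSK and 1 ± 0 in IgG, and Foxo1 3 ± 1 and 2.33 ± 1.53 (SD, n = 3 each), and neither passed (adjusted p = 0.187 and 0.805, exact permutation test). Il7r did not pass there (exact permutation test, adjusted p = 0.0554).

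Of 5 cofactors only Cbfa2t3, an ETO family corepressor, passed, with a mean ± SD of 17.3 ± 0.577 sites for LSK, 29 ± 4.24 for DN2b and 7 ± 1 for IgG (exact permutation test, adjusted p = 0.0202, and 0.0452 at equal lengths). Cd3e and Cbfa2t3 passed in both settings. Rag1 and Rag2, neighbours that share most of their window, passed at equal lengths alone, with a mean ± SD of 5 ± 0 sites for both DN2a and DN2b against 2.67 ± 0.577 for LSK and 2 ± 0 for IgG (adjusted p = 0.0325, exact permutation test). Id4, the fourth Id gene, passed at equal lengths alone on 2 sites in LSK and 0 in every Delta1 library (adjusted p = 0.0459, exact permutation test). Of the 6 partners of E proteins in the Tal1 and LIM complex, Tal2 alone passed, at equal lengths, with a mean ± SD of 7.33 ± 2.08 sites for IgG and 1 ± 0 for LSK (adjusted p = 0.0443, exact permutation test).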

How the data were processed

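DNase-seq peaks were measured in 12 libraries, 1 peak list each, and grouped by the labels. The authors trimmed and aligned the reads to mm10 with bwa and called 150-bp peaks per library with hotspot2 at an FDR of 0.05. BWA 0.7.12 and SAMtools 1.2 are named in the submitters' processing notes. The score in the deposited lists is a whole number from 1 to 150 with no meaning given in the sources used here, so it served here only for ranks inside each library. Read depth is unknown, so no counting interval was given, and list length stood in for it. Peaks on chromosome Y and the mitochondrial genome (0.0622% of all) were left out.

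Peaks sharing at least 1 bp were merged into DHSs and assigned to loci from GENCODE M21, while the study used an earlier release. Sequences came from RefSeq GRCm38.p6. Sites per locus and site percentiles were compared by exact permutation tests over libraries (eta squared for 5 groups, 138600 divisions, and two-sided differences in means for Delta1, 924, and DN2, 495), with Benjamini-Hochberg adjustment over all genes or DHSs at 0.05. The smallest possible p was 7.22e-06, 0.00216 and 0.00202. Python 3.11.15, numpy 2.4.6, pandas 2.3.3, scipy 1.17.1 and numba 0.67.0 were used, and the tests were tested on simulated data.

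The members, the lists of other genes and markers, and the tests were chosen with earlier results of these data known. Sites were named by a rule on promoters, site patterns, test results and level, which gave 66 sites, and any outside it are said to be so or follow from a count. Of the sites past a test as deposited, Tcf3 +59.3 kb and Id3 +35.3 kb fell outside the rule and were chosen after their values were seen. Alternatives were equal list lengths, the upper 50% of each list, merging within 150 bp, counts per 10000 peaks, windows of the gene body, 20 kb or 100 kb, promoter windows of 500 bp and 2.5 kb, sites present in all libraries, and leaving out each library.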

Additional observations from a re-analysis of the deposited data

How the results depend on the processing

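None of the 11 differences past the Delta1 test changed sign at equal list lengths, with the upper 50%, or with 1 library left out, but differences short of it did. At equal list lengths the Delta1 difference became -4.87 at Tcf3 +34.7 kb, -5.77 at Tcf3 -0.1 kb, -5.68 at Tcf4 +1.1 kb, -4.41 at Tcf4 +194.2 kb, -21.1 at Tcf12 +215.3 kb, -12.1 at Tcf12 +160.4 kb, -9.43 at Tcf12 +0.7 kb, -4.90 at the Id1 promoter site, -20.6 at Id1 +30.4 kb, -4.15 at Id3 +1.3 kb and -8.19 at Id3 +34.4 kb, all above 0 as deposited. With the upper 50% it became -0.148 at Tcf4 +194.2 kb and -4.06 at Tcf12 +0.7 kb. Leaving out 1 library gave ranges across 0 of -0.319 to 1.02 (Tcf3 +34.7 kb), -4.92 to 4.27 (Tcf4 +0.8 kb), -8.92 to 3.93 (Tcf4 +72.3 kb), -5.96 to 4.31 (Tcf4 +72.9 kb), -1.43 to 9.80 (Tcf4 +194.2 kb), -2.88 to 15.9 (Tcf12 +0.7 kb) and -1.005 to 1.18 (Id3 +34.4 kb).

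At equal list lengths the sites passing the test were 4 for Delta1 and 3 for DN2, the Tcf4 start was open in 1 library, and of 98 sites, with the share of all DHSs in brackets, 5 were gained (5.59%) and 5 lost (4.36%) from LSK to DN1, 2 lost from DN1 to DN2a (4.4%), 4 gained (2.61%) and 1 lost (2.61%) from DN2a to DN2b, 10 gained from LSK to DN2b (9.4%), 3 gained (7.28%) and 5 lost (7.07%) from LSK to IgG, 5 gained (8.23%) and 11 lost (10.2%) from DN1 to IgG, and 0 gained (1.98%) and 0 lost (0.447%) in DN2. With the upper 50% of each list 7 sites passed for Delta1 (7.06% of all DHSs did), Id2 passed the locus test (eta squared 0.895, exact permutation test, adjusted p = 0.0490), as did 15.8% of all genes, the Tcf4 start was open in 0 libraries, and of 109 sites 4 were lost from LSK to DN1 (3.67%, against 1.49% of all), 1 gained (against 1.91%) and 7 lost (6.42%, against 7.88%) from DN1 to DN2a, 3 gained (2.75%, against 4.23%) and 1 lost (0.917%, against 0.528%) from DN2a to DN2b, 2 gained from LSK to IgG (against 3.17%), and 0 gained (against 1.39%) and 0 lost (against 0.212%) in DN2. Among sites with a peak in all 12 libraries 4 of 22 passed for 5 groups and 4 for Delta1, beside 18.8% and 17.4% of all such sites. With 20 kb on each side Id3 passed (eta squared 0.910, exact permutation test, adjusted p = 0.0465), as did 5.72% of all genes. A 500 bp promoter window left Tcf4 open in 0 libraries and Id2 in 1, and 2.5 kb gave Tcf4 in 12. Merging within 150 bp moved no count by over 1.5 times. Merging, scaling per 10000 peaks, the gene body alone and 100 kb took no locus past the test, though eta squared at Id1 went from 0.392 to 0.667 when scaled, 0.693 at 100 kb and 0 for the gene body alone, and was 0.226 at 20 kb, 0.115 at equal list lengths and 0.644 with the upper 50%, and at Id3 from 0.646 to 0.426 when scaled. Shorter lists hold fewer sites by construction. Otherwise the cause was not tested.

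Leaving out 1 library gave eta squared of 0.630 to 0.892 at Tcf3, 0.703 to 0.844 at Tcf4, 0.649 to 0.900 at Tcf12, 0.358 to 0.968 at Id2 and 0.569 to 0.849 at Id3. Sites passing ranged from 0 to 19 for 5 groups (0% to 8.87% of all DHSs) and 0 to 11 for Delta1 (0% to 5.3%). The share of all DHSs is in brackets after each range. Sites gained and lost were 13 to 35 (7.83% to 21.2%) and 1 to 8 (1.18% to 3.38%) from LSK to DN1, 3 to 10 (1.31% to 5.39%) and 11 to 40 (6.36% to 19.8%) from DN1 to DN2a, 14 to 63 (3.81% to 23.7%) and 0 to 6 (0.537% to 4.03%) from DN2a to DN2b, and 22 to 69 (9.13% to 32.5%) and 7 to 13 (2.75% to 6.4%) from LSK to DN2b. IgG gained 1 to 3 sites over LSK (2.53% to 3.51%) and 1 to 3 over DN1 (2.51% to 3.42%), and lost 26 to 61 against DN1 (18.1% to 35.6%). Gains were 3 to 5 with Delta1 (1.94% to 2.61%) and 3 to 5 in DN2 (0.768% to 1.53%), and the Tcf4 start was open in 1 to 2 libraries. Without DN1 replicate 2, the shorter list of its group, the sites lost were 40 to DN2a (21.2%, against 19.8% of all) and 61 to IgG (32.3%, against 35.6%). Without DN2b replicate 1, the shorter list of its group, 69 were gained from LSK to DN2b (36.3%, against 32.5%). LSK sites lost to DN1 (8, 4.37% against 3.38%) and to DN2b (13, 8.23% against 6.4%) were most without DN1 replicate 1 and DN2b replicate 2, and the 0 for 5 groups came without any of the IgG libraries.

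No paired analysis was possible because the labels give no shared replicate numbers. With 2 or 3 libraries a group, unknown read depth and a score of unstated meaning, a missing peak is not proof of closed chromatin.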
